A study of Mus musculus with 2 samples.

Results

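The miR-200 family was read in microRNA sequencing libraries of mouse left cerebral cortex as the genes of its 2 clusters: Mir200b, Mir200a and Mir429 on chromosome 4, and Mir200c and Mir141 on chromosome 6. These 5 genes, chosen by their symbols in the GENCODE M21 annotation, were all present among the 2202 microRNA genes of the deposited tables. The tissue came from male B6CASTF1/J mice aged 36 days, with no treatment labelled, the F1 offspring of a cross between C57BL/6J and CAST strains, and RNA below 30 bases was sequenced. The labels give 2 biological replicates of 1 group, replicate 2 from animal 4 and replicate 1 from animal 3. Both carry the same donor identifier, so the labels do not settle how far they are independent animals. The design holds no contrast between conditions, and what can be asked is how much of each family member the cortex libraries hold and how far the libraries differ in them.

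MicroRNAs are cut from hairpin transcripts into a 5p and a 3p arm, and an arm loaded into an Argonaute protein finds messenger RNAs mainly through its seed, bases 2 to 8. The miR-200 family is best known from epithelia, where it represses the transcription factors Zeb1 and Zeb2 and so helps to keep E-cadherin expressed. In turn, Zeb1 and Zeb2 repress both miR-200 clusters. In mouse brain the family is known from olfactory neurogenesis, and most cortical cells are not epithelial.

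The 3p arms, which carry the family's best-known targeting activity, are shown because their seeds split the family in a way that crosses the clusters. Sequences are from RefSeq on GRCm38.p6, which matched all 5 members, and capitals mark the seed.
miR-200b-3p: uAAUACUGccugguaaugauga
miR-200c-3p: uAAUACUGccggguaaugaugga
miR-429-3p: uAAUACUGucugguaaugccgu
miR-200a-3p: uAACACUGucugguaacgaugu
miR-141-3p: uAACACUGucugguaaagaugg
The first 3 share the seed AAUACUG and the other two the seed AACACUG. Counted from base 1 at the 5′ end of miR-200b-3p, the seeds differ by U4C alone. Among the 1738 mature sequences in the same RefSeq table, the seed AAUACUG was found in those 3 microRNAs and the seed AACACUG in those 2. Outside the seed, over the 22 bases compared, miR-200c-3p differs from miR-200b-3p by U11G and A22G. It is also longer, at 23 bases against 22. In the other seed group, miR-141-3p differs from miR-200a-3p by C17A and U22G. Each cluster therefore holds both seeds: miR-200b, miR-429 and miR-200a on chromosome 4, and miR-200c and miR-141 on chromosome 6.

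Mir200b and Mir200c have the same 3p seed but went in opposite directions between the libraries, and their hairpins are shown with both mature arms in capitals, since the tables count both arms of a hairpin together.
Mir200b hairpin: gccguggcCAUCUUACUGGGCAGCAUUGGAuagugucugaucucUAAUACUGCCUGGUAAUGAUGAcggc
Mir200c hairpin: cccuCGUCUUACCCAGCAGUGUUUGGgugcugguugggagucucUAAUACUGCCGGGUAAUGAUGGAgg
The longest stretch these hairpins share is 14 bases. Over all 10 pairs of members, the longest was 17 bases, between Mir200a and Mir141. No member shared a stretch of 22 bases with any other microRNA gene of the table on either strand, and none shared a stretch of 18 bases. The mature arms of the family are 21 to 23 bases long, so no whole arm occurs in a second microRNA gene. Whether other parts of the genome hold such stretches was not tested.

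All members lie on the minus strand of mm10. In the order of transcription, the chromosome 4 cluster runs from Mir200b (chr4:156055681-156055750) over Mir200a (chr4:156054896-156054985) to Mir429 (chr4:156053905-156053987), with gaps of 695 and 908 bases, in 1846 bases in all. GENCODE M21 places the 3 hairpins in an intron of Ttll10, a tubulin tyrosine ligase-like gene on the same strand. It also places them within the noncoding transcript Gm13648, where Mir429 overlaps an exon. The chromosome 6 cluster spans 477 bases from Mir200c (chr6:124718322-124718390) to Mir141 (chr6:124717914-124717985). Both of its hairpins lie in an intron of the noncoding gene Gm15884, and Mir141 also overlaps an exon of Gm29008. The nearest protein-coding genes are Phb2, 1372 bases from Mir200c, and Ptpn6, 2317 bases from it.

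Replicate 2 held 4010274 and replicate 1 held 4273791 reads assigned to microRNA genes on their own strand. Levels are given in CPM, these reads scaled to 1000000 per library, with exact 95% Poisson intervals, which cover counting error only. Where a gene had no count, its level could still have been 0.748 CPM in replicate 2 or 0.702 CPM in replicate 1 (3 counts). The labelled tissue showed its neuronal microRNAs, whose 9 listed genes summed to 53459 CPM in replicate 2, against 85535 CPM in replicate 1, with Mir124a-2 listed at 0 in both. Of these genes, the Mir124a, Mir128 and Mir138 copies share 22 bases with one another, so their counts and the sum do not settle their level.

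The family was scarce in both libraries and its make-up was not the same in them. It summed to 386 CPM in replicate 2, against 138 CPM in replicate 1 (262 ± 175 CPM, SD, n = 2), on 1547 and 589 counts. Mir200b, Mir429 and Mir200c stood at 10 CPM or more in both libraries, as did 300 of the 2202 genes. In bulk tissue, more cells of a type and more RNA per cell cannot be told apart.

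Mir200c had 201 CPM in replicate 2 (188 to 216, 808 counts), against 15.4 CPM in replicate 1 (11.9 to 19.6, 66 counts). It was the most abundant member in replicate 2, at rank 168 of all genes, and stood below Mir200b and Mir429 in replicate 1, at rank 294. Its cluster partner Mir141 had 11.97 CPM in replicate 2 (8.83 to 15.9, 48 counts) and no count in replicate 1. Mir141 was the least abundant member in each library.

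Mir429 had 88.0 CPM in replicate 2 (79.1 to 97.7, 353 counts), against 48.2 CPM in replicate 1 (41.8 to 55.3, 206 counts). Mir200b had 54.6 CPM in replicate 2 (47.6 to 62.3, 219 counts), against 69.7 CPM in replicate 1 (62.0 to 78.1, 298 counts), where it was the most abundant of the 5. These were the steadiest members, with ranks of 208 and 230 for Mir429 and of 228 and 216 for Mir200b in replicates 2 and 1. Mir200a, in the middle of the same cluster, had 29.7 CPM in replicate 2 (24.6 to 35.5, 119 counts), against 4.45 CPM in replicate 1 (2.68 to 6.94, 19 counts).

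**Figure D1:**
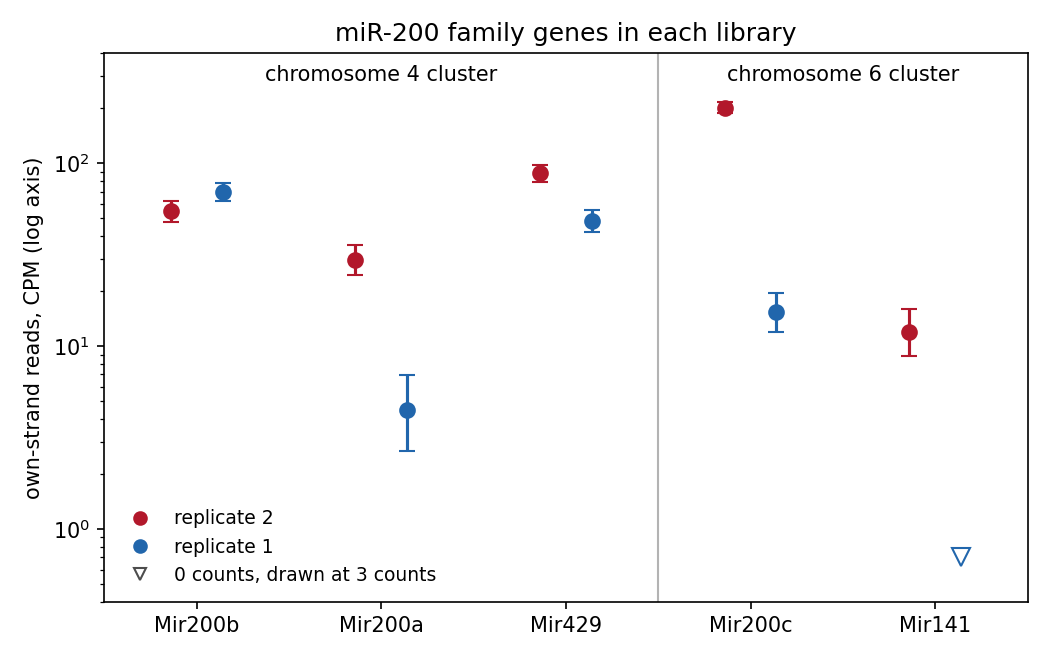
Level of each miR-200 family gene in CPM (log axis) in replicate 2 (red) and replicate 1 (blue), with exact 95% Poisson intervals and genes in the order of transcription within each cluster. Mir200c stood at 201 CPM in replicate 2, against 15.4 CPM in replicate 1, Mir200b at 54.6 and 69.7 CPM, and the open triangle puts the 0 counts of Mir141 in replicate 1 at the 0.702 CPM that 3 counts would give.

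Within replicate 2 the order in CPM was Mir200c, Mir429, Mir200b, Mir200a and Mir141, and within replicate 1 it was Mir200b, Mir429, Mir200c, Mir200a and Mir141. The intervals of neighbours in either order did not overlap. Dividing each level by hairpin length (69 to 90 bases) left both orders as they were. By mean over the libraries the levels were 108 ± 132 CPM for Mir200c, 68.1 ± 28.2 for Mir429, 62.2 ± 10.7 for Mir200b, 17.1 ± 17.8 for Mir200a and 5.98 ± 8.46 for Mir141 (SD, n = 2). The mean levels of Mir200c, Mir429 and Mir200b did not differ beyond their spread over the libraries, nor did those of Mir200a and Mir141. That spread leaves out that the genes were read in the same libraries, and Mir200a lay above Mir141 in each. Per base of hairpin, the means of Mir429 and Mir200b changed places, at 0.821 and 0.888 CPM per base. Mir200b lay above Mir200a in each library.

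The change of make-up was in the balance between the clusters and also inside the chromosome 4 cluster. The chromosome 6 cluster gave 55.3% of the family's counts in replicate 2 (exact 95% binomial interval 52.8 to 57.8) and 11.2% in replicate 1 (8.77 to 14.0). Shares of this kind do not depend on how the libraries are scaled. Within the chromosome 4 cluster, Mir200b gave 31.7% of counts in replicate 2 (28.2 to 35.3) and 57.0% in replicate 1 (52.6 to 61.3). Mir429 gave 51.1% in replicate 2 (47.3 to 54.9) and 39.4% in replicate 1 (35.2 to 43.7). Mir200a gave 17.2% in replicate 2 (14.5 to 20.2) and 3.63% in replicate 1 (2.20 to 5.62). For each of the 3 genes, the intervals of the libraries did not overlap.

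Within the chromosome 6 cluster the intervals of the libraries overlapped. Mir141 gave 5.61% of that cluster's counts in replicate 2 (4.16 to 7.37), against 0 of 66 counts in replicate 1, which allows a share of up to 4.55% by 3 counts and of 5.44% by the exact interval. The difference between these shares was not tested.

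Grouped by the seed of the 3p arm, the genes with AAUACUG held most of the family's counts in both libraries, where a gene's count takes in both arms of its hairpin. Mir200b, Mir200c and Mir429 together gave 89.2% of the counts in replicate 2 (87.6 to 90.7) and 96.8% in replicate 1 (95.01 to 98.05). Mir200a and Mir141, with AACACUG, gave 10.8% in replicate 2 (9.29 to 12.4) and 3.23% in replicate 1 (1.95 to 4.99). Inside the larger seed group, Mir200c made up 58.6% of counts in replicate 2 (55.9 to 61.2) and 11.6% in replicate 1 (9.07 to 14.5), while Mir200b made up 15.9% in replicate 2 (14.0 to 17.9) and 52.3% in replicate 1 (48.1 to 56.4). These are shares of gene counts, and the supply of the seed-bearing arm itself was not measured.

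**Figure D2:**
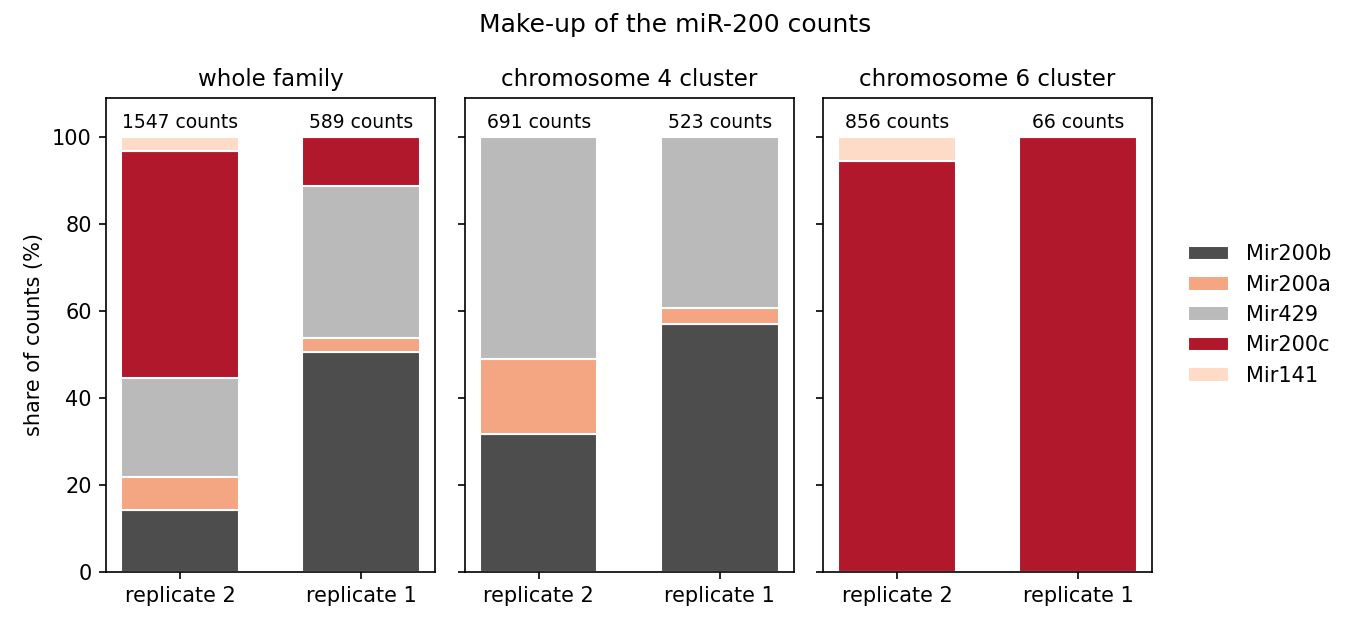
Share of counts (%, from 0) given by each gene within the whole family, the chromosome 4 cluster and the chromosome 6 cluster, with a bar for replicate 2 and one for replicate 1 in each panel and the number of counts above it. Mir200c took 52.2% of the family in replicate 2 and 11.2% in replicate 1, and Mir200b took 14.2% and 50.6%.

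Of the 5 members, 4 were called higher and 1 lower in replicate 2 than in replicate 1. The call was an exact two-sided binomial test of each gene's counts against TMM library sizes, with Benjamini-Hochberg adjustment over all 516 genes with 10 or more counts, among which all 5 members stood. Mir141, with 48 counts in replicate 2 and 0 in replicate 1, met that minimum through replicate 2 alone. The test compares these libraries and not conditions, and it takes account of counting error alone. It called 27.5% of all tested genes higher and 30.4% lower (57.9% in either direction), so a call by itself sets no gene apart. When a difference of at least 1 on the log2 scale was asked for as well, 3 members were called higher and 0 lower, against 7.75% and 11.6% of all tested genes. The median log2 ratio was 2.78 over the members with Mir141 at its bound, and 1.84 over the 4 with counts in both libraries, beside -0.04 over all genes tested.

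Mir200c had a log2 ratio of 3.75 (exact 95% interval 3.38 to 4.13, adjusted p = 1.63e-177, exact binomial test), a level 13.4-fold higher in replicate 2. Mir141 was at least 17.5-fold higher, taking 3 counts as the floor in replicate 1 (adjusted p = 1.33e-15, exact binomial test), a bound that leaves out the counting error of its 48 counts in replicate 2. The lower end of the exact 95% interval of its log2 ratio was 3.78. The chromosome 6 cluster as a whole had a log2 ratio of 3.83 (3.47 to 4.21). Among the 309 genes whose summed counts reached 100, the ratio of Mir200c was the second from the top. Of 61 other genes whose combined count lay within a factor of 2 of that of Mir200c, 1 had a larger absolute log2 ratio, and the median absolute log2 ratio of the 61 was 0.52.

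The chromosome 4 cluster as a whole had a log2 ratio of 0.53 (0.37 to 0.70), whose interval lay below that of the chromosome 6 cluster. Its genes did not move together. Mir200a had a log2 ratio of 2.78 (2.07 to 3.56, adjusted p = 2.02e-20, exact binomial test), the sixth from the top among the 309 genes. Of 79 other genes of similar count, 2 had a larger absolute log2 ratio. Mir429 had a log2 ratio of 0.91 (0.66 to 1.16, adjusted p = 1.00e-12, exact binomial test), and 11 of 60 genes of similar count exceeded it in absolute size. Mir200b alone was lower in replicate 2, with a log2 ratio of -0.31 (-0.57 to -0.06, adjusted p = 0.0281, exact binomial test). Among its 62 neighbours in count, 37 had a larger absolute log2 ratio, and the median of the 62 was 0.45, so most genes of that depth differed by more. Its call was lost with DESeq2 size factors taken over the tested genes (log2 ratio -0.28, adjusted p = 0.0585, exact binomial test).

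**Figure D3:**
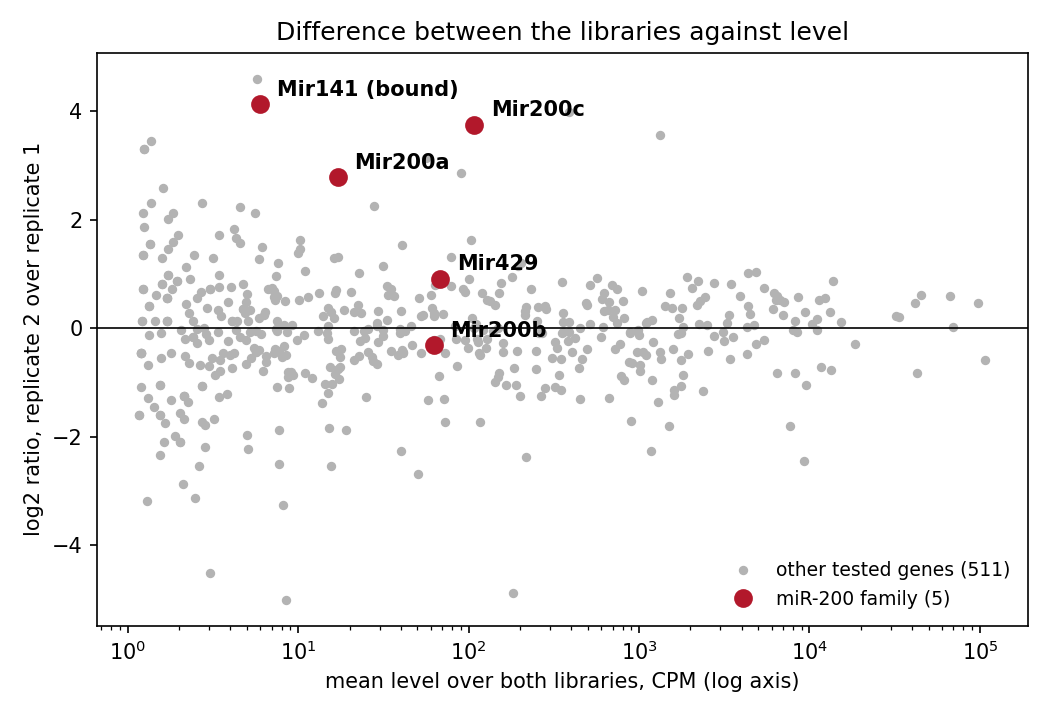
Log2 ratio of replicate 2 over replicate 1 (vertical axis) against mean level in CPM (log axis) for the 516 tested genes, with the 5 miR-200 genes in red and the other 511 in grey; genes without counts in one library stand at a bound that takes 3 counts there. Mir200c (3.75), Mir200a (2.78) and Mir141 (bound 4.13) lie near the upper edge, while Mir429 (0.91) and Mir200b (-0.31) lie within the cloud.

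For Mir200c, Mir200a, Mir141 and Mir429, the genes next to them in mean level had smaller absolute log2 ratios. Mir1198 and Mir483, next above and next below Mir200c in mean CPM, had 446 and 424 counts in replicate 2 and 467 and 460 counts in replicate 1. Next to Mir200a stood Mir669h, with log2 ratio 1.31, and Mir7066, with -0.75. Mir190b and Mir3572, next to Mir141, had 23 and 25 counts in replicate 2 and 27 and 24 in replicate 1. Around Mir429 stood Mir155 (log2 ratio 0.27) and Mir9-3 (-0.19), and around Mir200b stood Mir29b-1 (-0.21) and Mir493 (0.38).

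The genes whose log2 ratio over the 2 libraries was nearest to each member's were looked up among those with 100 or more counts. For Mir200a they were Mir183 and Mir182 of the miR-183 cluster, known from sensory organs. Mir183 had 157 CPM in replicate 2, against 22.2 CPM in replicate 1 (log2 ratio 2.86), and Mir182 had 100.2 CPM in replicate 2, against 11.7 CPM in replicate 1 (3.14). For Mir200c they were Mir185, with 2447 CPM in replicate 2, against 215 CPM in replicate 1 (3.55), and Mir451a of red cells, with 726 and 47.0 CPM (3.99). For Mir429 they were Mir7-2 (0.90) and Mir134 (0.92), and for Mir200b Mir1193 (-0.31) and Mir23b (-0.30). With 2 libraries a likeness of this kind rests on a single ratio. Of these neighbours in level or ratio, Mir7-2, Mir9-3, Mir29b-1 and Mir669h each have 22 consecutive bases that recur in another microRNA gene. This leaves their counts uncertain. Mir451a shares such a stretch with Mir451b in a search of both strands, and on which strand was not examined. The same holds for Mir486 and Mir126a, named below, which share stretches with Mir3107 and Mir126b.

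Other microRNAs known from epithelia, or from the passage between epithelial and mesenchymal states, did not share the direction of Mir200c as a group. Of 18 listed genes 16 could be tested, and 4 were called higher and 8 lower in replicate 2, with a median log2 ratio of -0.09, beside 27.5% and 30.4% of all tested genes. Under the other settings 2 to 5 were called higher and 6 to 9 lower. The list pools both kinds of microRNA, which were not counted apart, so its median has no single meaning. Mir203 and Mir205, both known from skin and other stratified epithelia, were lower. Mir203 had 32.4 CPM in replicate 2, against 83.5 CPM in replicate 1 (log2 ratio -1.33, interval -1.63 to -1.03), and Mir205 had 3.24 CPM in replicate 2, against 12.2 CPM in replicate 1 (-1.87, -2.87 to -0.97). Mir192, abundant in gut and kidney epithelium, was lower too, at 5.98 CPM in replicate 2, against 11.5 CPM in replicate 1 (-0.90, -1.67 to -0.17). Mir21a, induced in many injured and proliferating tissues, had 394 CPM in replicate 2, against 1953 CPM in replicate 1 (-2.27, -2.35 to -2.19).

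The other members of that list lay closer to the line of no difference. Mir221 and Mir335 were higher in replicate 2, each with a log2 ratio of 0.60, and Mir34a and Mir155 had 0.09 and 0.27, though Mir34a stood at -0.02 when scaled to totals without the most abundant gene. The call of Mir155 (adjusted p = 0.0481, exact binomial test) was lost under 7 of 9 other settings, with adjusted p between 0.0705 and 0.298, and that of Mir34a under 2. Mir145a, Mir34c, Mir375 and Mir222 were lower, with log2 ratios of -0.42, -0.42, -0.37 and -0.12. Mir31, Mir194-2, Mir10b and Mir34b did not pass the test, with log2 ratios of 0.03, 0.28, -0.05 and 0.01, and the signs for Mir31 and Mir34b depended on the scaling. Mir215, at 3 counts in replicate 2 and 5 in replicate 1, and Mir194-1, listed at 0 in both, had too few counts to test. Mir194-1 and Mir194-2 share 22 bases with each other, so their counts are uncertain.

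The lists for the miR-183 cluster, red cells, mural cells and endocrine cells summed higher in replicate 2, as the family did. The mixed list of epithelial and epithelial-mesenchymal microRNAs, described above, summed to 19473 CPM in replicate 2, against 17281 CPM in replicate 1. Of its tested genes, 4 were called higher and 8 lower. Mir221 had 7687 CPM in replicate 2, against 5200.1 CPM in replicate 1, and Mir335 had 4671 against 3176 CPM. Mir203, Mir205, Mir192 and Mir375 were among the lower ones, so the sum does not speak for epithelial genes. The miR-183 list summed to 259.8 CPM in replicate 2, against 33.9 CPM in replicate 1, with 3 of 3 genes higher. The remaining gene, Mir96, had 10 counts in replicate 2 and 0 in replicate 1. It met the minimum of 10 counts exactly and through replicate 2 alone, so its call adds little. The red-cell list summed to 794 CPM in replicate 2, against 83.5 CPM in replicate 1, with 2 of 3 genes higher. Over all tested genes, 27.5% were called higher. Under the other settings 2 to 3 miR-183 genes and 1 to 2 red-cell genes were called higher, some settings testing fewer of them. Mir486, the red-cell gene that did not pass the test, had 22.9 CPM in replicate 2, against 26.7 CPM in replicate 1. Mir183, Mir182 and Mir451a were already named for their ratios, and the lists were chosen with earlier results of these data known. The likeness of the miR-183 and red-cell lists to the family is therefore not independent evidence. Their part in the miR-200 difference was not tested.

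Markers of the epithelial cells that line the ventricles and make cerebrospinal fluid were not called higher in replicate 2. The choroid plexus and pigment epithelium list summed to 391 CPM in replicate 2, against 458 CPM in replicate 1, with Mir204 lower (log2 ratio -0.18) and Mir211 at 4 and 9 counts. The multiciliated list summed to 202 CPM in replicate 2, against 266 CPM in replicate 1, with 0 of 3 tested genes higher and 1 lower. Mir449b and Mir449c were at 0 in both libraries. Mir34c, the gene called lower, is also on the mixed list of epithelial and epithelial-mesenchymal microRNAs above, as is Mir34b. Both lists are small, beside 27.5% higher and 30.4% lower over all tested genes. Their part in the difference of the miR-200 family was not tested. Of the endocrine list, summing to 2723 CPM in replicate 2, against 2122 CPM in replicate 1, Mir7b and Mir7-2 were higher and Mir375 lower.

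The remaining lists held genes in both directions or lower only. Sums in replicates 2 and 1 were 10799 and 11394 CPM for endothelial Mir126a, 7691 and 5178 for mural genes, 2066 and 2230.1 for leukocytes and microglia, 3543 and 5098 for oligodendrocytes, and 29.9 and 80.5 for striated muscle. Leukocyte Mir223 was far lower in replicate 2, with 2 counts there and 70 in replicate 1. Muscle had 4 of 4 tested genes lower, and 2 of 2 at a minimum of 100 counts. Mir133a-2 and Mir1a-1 were listed at 0 in both libraries. The Mir133a copies share 22 bases, as do the Mir1a copies and Mir1b, so those zeros do not settle their level. Called higher and lower were 1 and 1 of 2 mural genes and 2 and 2 of 6 leukocyte genes. For neurons these were 2 and 5 of 8 genes, and for oligodendrocytes 0 and 2 of 3. In the search of both strands, Mir219a-1 and Mir219a-2 share 22 bases with each other, and Mir338 shares 22 with Mir3065. The counts of the oligodendrocyte list are therefore uncertain. With unstranded counts, neither its genes nor Mir126a could be tested. Over all tested genes 27.5% were called higher and 30.4% lower, and no list was tested against these shares. Mir155 is also on the leukocyte list, so under those 7 settings 1 leukocyte gene was called higher. Mir126a was called lower with a log2 ratio of -0.04, but not with DESeq2 size factors over the tested genes.

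**Figure D4:**
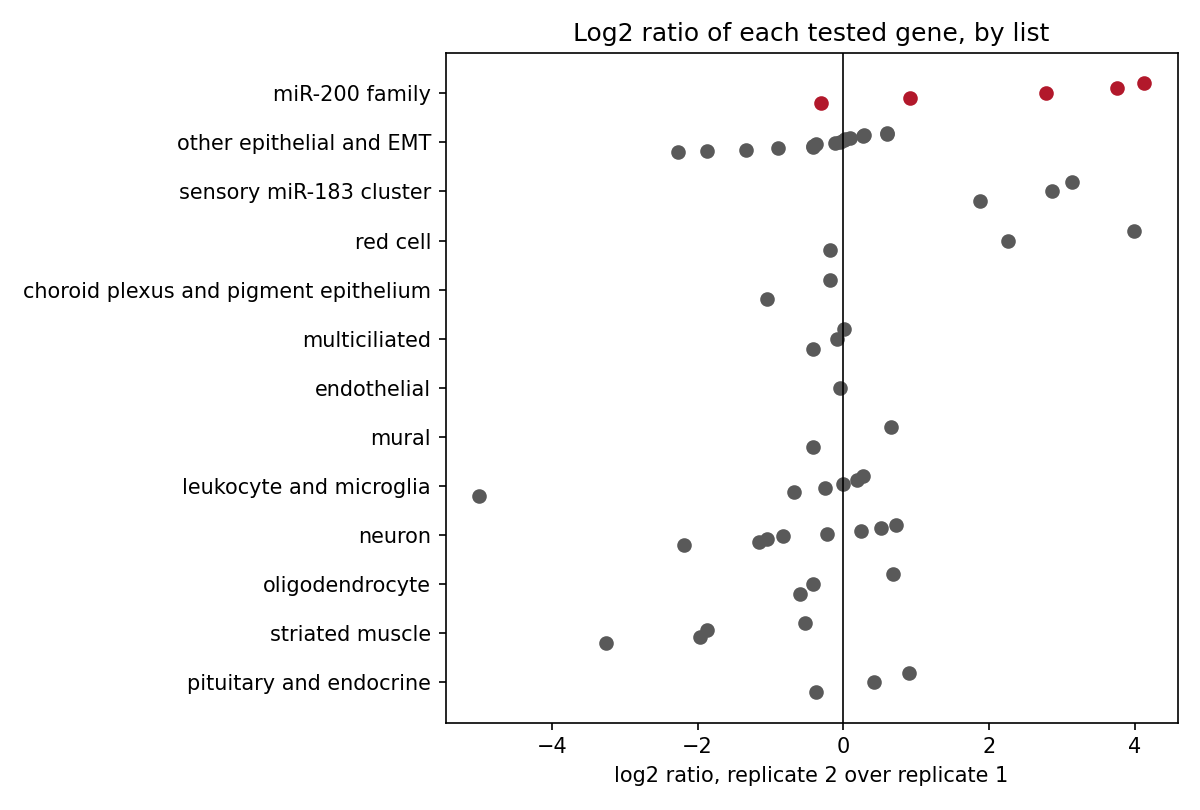
Log2 ratio of replicate 2 over replicate 1 for each tested gene of the miR-200 family (red) and of 12 marker lists (grey), with a row for each list and a point for each gene; genes without counts in replicate 1 stand at their bound. The miR-200 points run from -0.31 to 4.13, those of the miR-183 cluster lie at 1.87 and above, and those of striated muscle at -0.52 and below.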

How the data were processed

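The deposited tables, 1 per library, hold whole-number read counts per microRNA gene, not normalized. Per the text files deposited beside them, reads were mapped to mm10 with annotation M21. Aligner, counter and trimming: not given in the sources used here. In these headerless tables, the second column of counts was read as own-strand counts, since opposite-strand reads at the members came to 1 in replicate 2 and 0 in replicate 1. Entries that name no gene stayed out: multi-mapped reads (39.9% of all reads in replicate 2, 42.8% in replicate 1), unmapped reads (20.9% and 16.7%) and reads outside microRNA genes (4.39% and 4.56%).

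Library sizes were TMM-scaled over genes with 10 or more counts (edgeR 4.0.16, R 4.3.3). The binomial test and exact (Clopper-Pearson) intervals used SciPy 1.17.1. No count model was fitted, since 1 group leaves no contrast. Alternatives were DESeq2 1.42.0 size factors, other totals, other minimum counts, unstranded counts and each library left out. Named genes were the members, those nearest to them in log2 ratio (100 or more counts) or mean CPM, and list members. The members and lists were chosen with earlier results of these data known.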

Additional observations from a re-analysis of the deposited data

Results flagged for a closer look

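Reads that the comparisons do not use were looked at because there are more of them than the 3 that a count of 0 leaves possible. That limit is for a single gene, so totals over a library were bound to exceed it. Multi-mapped reads came to 4604314 in replicate 2 and 5091406 in replicate 1. Which microRNAs they belong to is not given in the tables. Opposite-strand reads at the 5 miR-200 genes stayed under that limit, at 1 in replicate 2 and 0 in replicate 1. The columns were told apart by these same values, so they are no separate check.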

How the results depend on the processing

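Over 44 alternative values of the 5 log2 ratios, none changed direction. A changed minimum count cannot move a ratio, and a changed library scaling moves all genes by the same amount. The count of 44 therefore says little about the larger ratios. The ranges were 3.63 to 3.78 for Mir200c, 2.67 to 2.82 for Mir200a, 0.80 to 0.95 for Mir429, -0.43 to -0.28 for Mir200b and, as bounds, 4.02 to 4.17 for Mir141. The call of Mir200b was lost with DESeq2 size factors over the tested genes, an alternative chosen after seeing the data (log2 ratio -0.28, adjusted p = 0.0585 in the exact binomial test, over a range of 0.00205 to 0.0585). Members called lower then numbered 0, and also 0 when a log2 difference of at least 1 was asked for, where Mir200b falls short by construction. Totals without the most abundant gene put the median log2 ratio of all genes at -0.15, against -0.04. With all reads as the denominator, the chromosome 4 cluster stood at 51.95 reads per 1000000, against 147 CPM over assigned reads. Unstranded counts gave the same calls of members. Mir141 has no value at a minimum of 100 counts. With each library left out in turn, the family level ran from 138 to 386 CPM, the chromosome 4 cluster from 122 to 172 CPM and the chromosome 6 cluster from 15.4 to 213 CPM. Cluster shares then ran from 3.63% to 17.2% for Mir200a, 31.7% to 57.0% for Mir200b, 39.4% to 51.1% for Mir429, 94.4% to 100% for Mir200c and 0% to 5.61% for Mir141. The ratios have no such value, since they need both libraries. No paired analysis was possible because the series holds 1 group. The 19 counts of Mir200a and 0 of Mir141 in replicate 1 limit what can be said of these genes there.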
